A study of Mus musculus with 8 samples.

Results

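The genes described here are the 10 that encode the gastric proton pump and the ion transporters and channels that serve it in the parietal cell: Atp4a, Atp4b, Kcne2, Kcnq1, Kcnj15, Slc26a7, Slc26a9, Slc9a4, Slc4a2 and Clic6. They were chosen by symbol, and all 10 were found by their NCBI Gene ID among the 38920 rows of the tables. RNA was sequenced from sorted gastric epithelial cells of C57BL/6 mice, as total RNA freed of ribosomal RNA. The 8 libraries fall into 4 from mice fed a high fat diet (HFD22, HFD23, HFD26 and HFD27) and 4 from control mice, whose titles begin with ND (ND15.17.18, ND16, ND19 and ND20). Strain, tissue and cell type are the same in all 8 labels, and age, sex, time on the diet, the composition of either diet and the gate used for sorting are not stated in the labels. The labels do not say whether a library came from 1 mouse, and the title of ND15.17.18 lists 3 numbers, so p-values measure the spread between these libraries, which may be in part technical.

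Parietal cells acidify the stomach with the H+,K+-ATPase, which exchanges cytosolic protons for luminal potassium. The pump can turn only while potassium returns to the lumen through apical channels and while chloride follows, and the bicarbonate left behind in the cytosol leaves across the basolateral membrane in exchange for chloride. The genes below are ordered by these tasks: pump subunits, potassium channels, chloride pathways, and basolateral exchangers.

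Levels are given as log2(value + 1) after median-ratio scaling, which divides a library by its median ratio to the geometric mean profile, and differences are HFD minus ND on that scale. The scaling matters in this comparison. ND15.17.18 carried 85.7% of its total in its 20 most abundant rows, against 27.8% to 59.1% in the other 7 libraries, and on the deposited common total the median tested row lay 0.90 higher in HFD, against 0.12 after scaling. Depth, estimated from the worth of 1 read, was 16.4 M reads in ND19 and 31.4 to 63.2 M in the other 7 libraries. Even the lowest of the 10 genes, Slc26a7, held the equivalent of 67.3 or more reads in every library. It held 67.3 in ND19 and 69.7 in ND15.17.18, against 171.6 or more in the others. The summed level of the 10 genes was 17.23 to 17.84 in HFD and 17.22 to 18.01 in ND. Atp4a ranked between 16th and 50th of all rows in every library. Genes of other stomach cells were present as well: chief cell markers summed to 21.06 to 21.54 in HFD and 20.08 to 21.26 in ND, and surface mucous markers to 18.79 to 19.56 in HFD and 18.85 to 19.94 in ND. Smooth muscle markers summed to 11.35 to 12.01 in HFD and 8.71 to 10.75 in ND, and forestomach markers to 11.05 to 12.31 in HFD and 6.85 to 11.19 in ND, both far below the pump; the part of any of these cells in the differences below was not tested.

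None of the 10 genes was called higher or lower in HFD (0 of 10, limma with Benjamini-Hochberg adjustment over all 27401 tested rows, threshold 0.05), where 0.0109% of all tested rows were called. At an unadjusted p under 0.05 there were 2 of 10, Slc26a7 and Slc26a9, both lower in HFD, where 10.6% of all tested rows were past that limit in either direction, 4.03% on the lower side and 6.52% on the higher. In 0 of 10 did the 4 HFD libraries lie entirely apart from the 4 ND libraries, against 7.85% of all tested rows. Of the 10 differences 8 were negative, as were 39.9% of all tested rows. The scaling was set on the 11115 rows above 30 in every library, whereas the tested rows reach far lower. The share of negative differences among rows as abundant as these genes is not given, here or for the lists below. The median of the 10 differences was -0.15, beside 0.12 over all tested rows. Without ND15.17.18 these medians were -0.24 and 0.092, and after quantile normalization they were level, at 0.012 and 0.014. On the deposited scale all 10 differences were positive, with a median of 0.71 beside 0.90 over all tested rows, and 0 of 10 were called there (0.0584% of all rows) or reached an unadjusted p under 0.05 (9.61%). After quantile normalization 5 of 10 were negative and 0 were called (0.0109% of all rows), with Slc26a7 and Slc26a9 again the 2 at an unadjusted p under 0.05, both lower, as were 4.92% of all rows. The deposited common total shifts all rows of a library alike, which fixes the signs there, and after quantile normalization 3 signs differed from those after scaling (Atp4a, Atp4b and Clic6). No change was called, and such libraries could not tell a change in the number of parietal cells from a change of these RNAs per parietal cell.

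**Figure D1:**
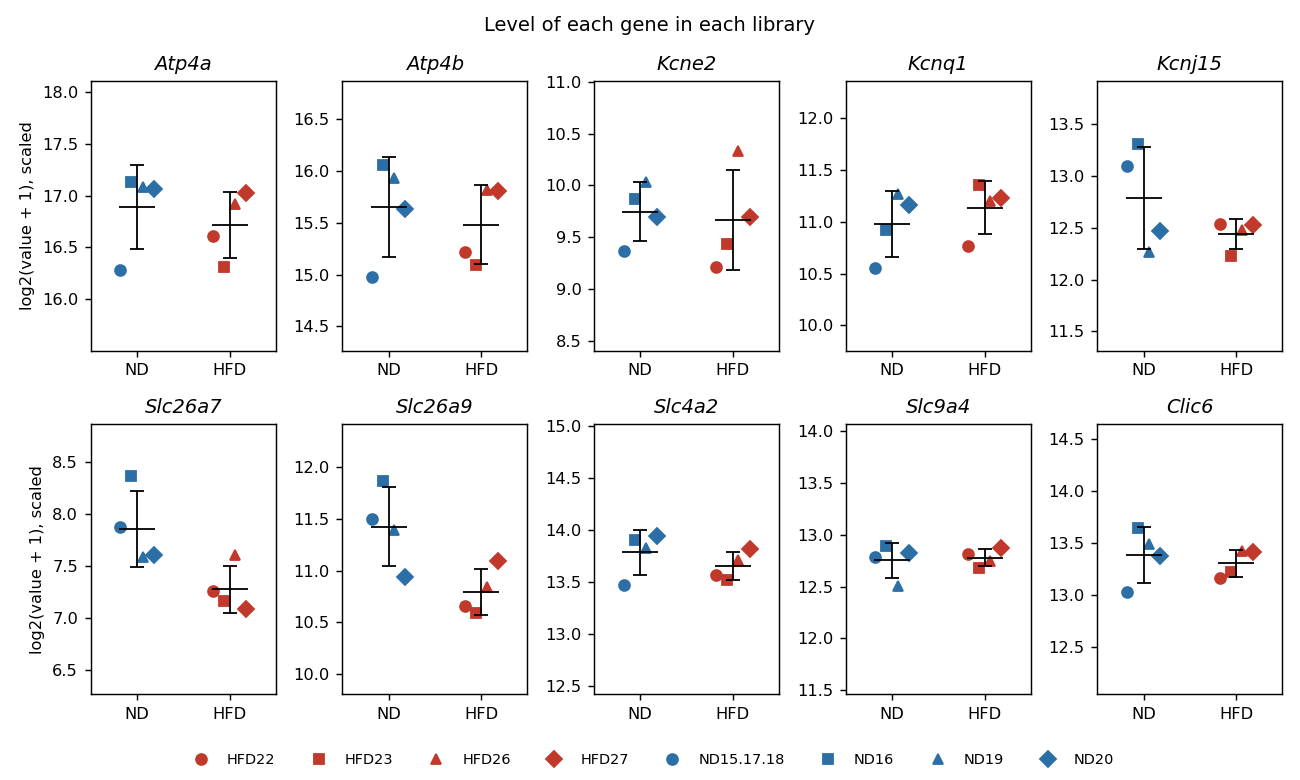
Level of each of the 10 genes in each library, as log2(value + 1) after median-ratio scaling (vertical axis, the same span in every panel), with ND libraries in blue and HFD libraries in red. Horizontal bars and error bars are the mean and SD of 4 libraries; the groups overlap in every panel, least for Slc26a7 and Slc26a9.

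Atp4a (Gene ID 11944, chromosome 7, 30712209 to 30725534, mm10, forward strand) encodes the catalytic subunit of the pump. It stood at 16.62, 16.32, 16.92 and 17.02 in HFD22, HFD23, HFD26 and HFD27, and at 16.28, 17.13, 17.08 and 17.07 in ND15.17.18, ND16, ND19 and ND20. ND15.17.18 was the lowest of all 8, the other 3 ND libraries lay above every HFD library, and the groups overlap only through ND15.17.18. The difference was -0.17 ± 0.22 (SE; limma adjusted p = 0.79), and ran from -0.37 without ND15.17.18 to -0.038 without HFD23. Deposited values of Atp4a differed by 0.68 ± 0.78 (SE), and after quantile normalization the difference was 0.29.

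Atp4b (Gene ID 11945, chromosome 8, 13386209 to 13396778, reverse strand) encodes the glycosylated subunit that carries the catalytic subunit to the membrane. Its levels were 15.22, 15.09, 15.81 and 15.81 in HFD22, HFD23, HFD26 and HFD27, and 14.98, 16.06, 15.93 and 15.63 in ND15.17.18, ND16, ND19 and ND20. The libraries low in Atp4a (HFD22, HFD23 and ND15.17.18) were also the 3 lowest in Atp4b. Its difference was -0.17 ± 0.26 (SE; limma adjusted p = 0.82), and ran from -0.39 without ND15.17.18 to -0.032 without ND16. The ratio of the subunits within a library is free of the scaling, and on the log2 scale Atp4b to Atp4a was -1.24 ± 0.12 in HFD and -1.24 ± 0.16 in ND (SD, n = 4 each). That ratio differed by 0.0037 ± 0.10 (SE; exact two-sided permutation p = 1), with an interval of 2 SE from -0.20 to 0.21. Together these subunits made up 73.3% to 82.3% of the summed value of the 10 genes in every library.

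For orientation, the 250 bases upstream of the RefSeq start (GRCm38.p6, the assembly mm10 stands for) are printed for Atp4a, the gene to which the others are set in ratio below, and for Slc26a9, the gene with the smallest p. Each is given 5′ to 3′ on the forward strand, Atp4a at chr7:30711959-30712208 and Slc26a9 at chr1:131743772-131744021, and capitals mark the motifs searched.
Atp4a: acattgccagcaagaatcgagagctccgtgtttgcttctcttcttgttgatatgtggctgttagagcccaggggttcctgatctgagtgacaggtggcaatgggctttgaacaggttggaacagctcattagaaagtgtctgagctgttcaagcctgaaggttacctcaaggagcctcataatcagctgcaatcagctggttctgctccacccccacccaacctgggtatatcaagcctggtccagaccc
Slc26a9: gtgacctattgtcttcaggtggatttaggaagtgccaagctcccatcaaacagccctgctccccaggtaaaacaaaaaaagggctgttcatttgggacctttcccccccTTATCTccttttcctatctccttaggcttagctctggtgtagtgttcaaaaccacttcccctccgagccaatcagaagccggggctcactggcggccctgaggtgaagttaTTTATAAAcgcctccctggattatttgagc
Each motif was searched on both strands and is given with its share of the 32851 windows of the same length in the table. AAGGTCA, the element of estrogen-related receptors, occurs in 4.08% of them. The GATA factor element AGATAA occurs in 9.99%, and its variant TGATAA in 7.94%. The TATA box letters TATAAA occur in 12.4%. The Slc26a9 window holds the first of the GATA elements on the reverse strand and the TATA letters on both strands, as overlapping matches; the Atp4a window holds none of these motifs. Of the 10 genes 5 (Atp4a, Kcne2, Kcnj15, Slc26a9 and Slc4a2) have an entry in that table, with 7 windows in all, and Slc26a9 is the only gene of the 5 with a match.

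Potassium returns to the lumen mainly through the channel built from Kcnq1, its pore subunit, and Kcne2, its small regulatory subunit. Kcnq1 (Gene ID 16535, chromosome 7, 143106877 to 143427050) was at 10.77, 11.36, 11.20 and 11.22 in HFD22, HFD23, HFD26 and HFD27 and at 10.55, 10.92, 11.27 and 11.16 in ND15.17.18, ND16, ND19 and ND20. It was the gene with the most positive difference of the 10, at 0.16 ± 0.18 (SE; limma adjusted p = 0.75), with HFD23 highest and ND15.17.18 lowest, and the difference was 0.02 without ND15.17.18 and -0.05 without HFD23 and ND15.17.18. Exons of Kcnq1 share 121 bases (2.96%) with its antisense transcript Kcnq1ot1, which was itself at 10.62 to 11.33 in HFD and 10.89 to 11.95 in ND; the labels do not say whether counting kept the strands apart.

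Kcne2 (Gene ID 246133, chromosome 16, 92292389 to 92298133) spread widely within HFD, at 9.22, 9.44, 10.33 and 9.69 in HFD22, HFD23, HFD26 and HFD27. In ND15.17.18, ND16, ND19 and ND20 it was at 9.37, 9.87, 10.04 and 9.70, inside the HFD range. Its difference was -0.08 ± 0.24 (SE; limma adjusted p = 0.92), and it was the only gene of the 10 whose SD was larger in HFD (0.48) than in ND (0.28). Over all tested rows 69.3% had the larger SD in ND.

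Kcnj15 (Gene ID 16516, chromosome 16, 95257558 to 95300260) encodes an inwardly rectifying potassium channel of the parietal cell. It was at 12.54, 12.23, 12.48 and 12.52 in HFD22, HFD23, HFD26 and HFD27, within a narrow range. ND held a high pair, 13.10 and 13.31 in ND15.17.18 and ND16, and a low pair, 12.27 and 12.47 in ND19 and ND20, which lay among the HFD libraries. The difference of -0.34 ± 0.22 (SE; limma adjusted p = 0.60) was smaller than the ND SD of 0.49. It ran from -0.17 without ND16 to -0.51 without ND19 (unadjusted p = 0.028, limma adjusted p = 0.32). Its exons share 333 bases (5.27%) with the antisense gene Gm49643.

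Slc26a9, a chloride channel and transporter of the gastric mucosa that is known from surface mucous cells as well as from parietal cells, had the most negative difference of the 10. The gene (Gene ID 320718, chromosome 1, 131744022 to 131771504) was at 10.66, 10.59, 10.84 and 11.09 in HFD22, HFD23, HFD26 and HFD27 and at 11.50, 11.87, 11.39 and 10.94 in ND15.17.18, ND16, ND19 and ND20. Of the HFD libraries 3 lay below every ND library, and HFD27 lay above ND20. The difference was -0.63 ± 0.19 (SE), which is 0.647-fold, with an unadjusted p of 0.0091 and a limma adjusted p of 0.31. By p it ranked 816th of the 27401 tested rows, within the first 2.98%, and its difference ran from -0.79 to -0.48 as each library in turn was left out. On the deposited scale the sign turned, at 0.23 ± 0.74 (SE), still below the 0.90 of the median tested row. None of the 5 surface mucous markers was at 0 in any library, and their part in the Slc26a9 difference was not tested.

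Slc26a7, a basolateral chloride/bicarbonate exchanger of the same family, had the lowest level of the 10. This gene (Gene ID 208890, chromosome 4, 14502430 to 14621946) was at 7.26, 7.16, 7.60 and 7.09 in HFD22, HFD23, HFD26 and HFD27 and at 7.88, 8.37, 7.59 and 7.60 in ND15.17.18, ND16, ND19 and ND20. Here too 3 HFD libraries lay below every ND library, and HFD26 lay level with ND19 and ND20. The difference was -0.58 ± 0.22 (SE), or 0.669-fold, with an unadjusted p of 0.027 and a limma adjusted p of 0.41. With 1 library left out the unadjusted p ran from 0.019 to 0.074. Its deposited difference was 0.27 ± 0.75 (SE).

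Clic6, a chloride channel-like protein abundant in parietal cells, varied little. The gene (Gene ID 209195, chromosome 16, 92498147 to 92541241) was at 13.17, 13.22, 13.42 and 13.41 in HFD22, HFD23, HFD26 and HFD27 and at 13.02, 13.65, 13.49 and 13.37 in ND15.17.18, ND16, ND19 and ND20, with all HFD values inside the ND range. The difference was -0.08 ± 0.14 (SE; limma adjusted p = 0.85).

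Slc4a2, the basolateral anion exchanger that trades bicarbonate for chloride, was at 13.57, 13.52, 13.71 and 13.82 in HFD22, HFD23, HFD26 and HFD27 and at 13.47, 13.90, 13.83 and 13.94 in ND15.17.18, ND16, ND19 and ND20. As with Atp4a, the other 3 ND libraries lay above every HFD library and ND15.17.18 below them all. The gene (Gene ID 20535, chromosome 5, 24423761 to 24440947) differed by -0.13 ± 0.13 (SE; limma adjusted p = 0.71), from -0.24 without ND15.17.18 to -0.079 without ND20. Its exons share 1141 bases (13.7%) with Fastk on the opposite strand, at 10.70 to 10.82 in HFD and 10.36 to 10.66 in ND. If counting did not use strand, the Slc4a2 level may include Fastk reads, to an extent that was not estimated.

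Slc9a4, a basolateral sodium/proton exchanger, was the steadiest of the 10, with an SD of 0.12 over all 8 libraries. The gene (Gene ID 110895, chromosome 1, 40579986 to 40630731) was at 12.82, 12.68, 12.75 and 12.87 in HFD22, HFD23, HFD26 and HFD27 and at 12.79, 12.89, 12.51 and 12.82 in ND15.17.18, ND16, ND19 and ND20. Its difference of 0.03 ± 0.11 (SE; limma adjusted p = 0.94) has an interval of 2 SE from -0.19 to 0.24. Exons of Slc9a4 share 764 bases (16.8%) with Gm37435 and 207 bases (4.54%) with Gm35801, both on the opposite strand.

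**Figure D2:**
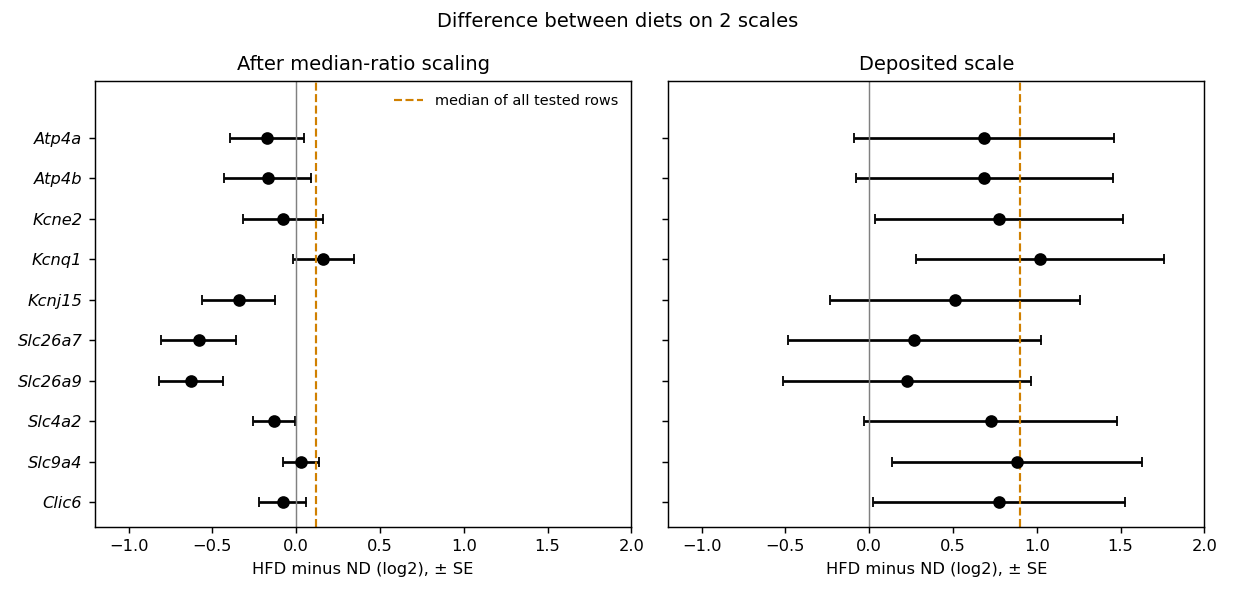
Difference between diets for each of the 10 genes (horizontal axis, HFD minus ND, log2, with SE from limma, n = 4 each), after median-ratio scaling on the left and on the deposited scale on the right. The dashed line is the median over all tested rows, 0.12 on the left and 0.90 on the right; on the deposited scale every error bar is at least 0.74, and all 10 genes but Kcnq1 lie below that line.

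Levels were compared between genes only per length, as the scaled value per kilobase of the gene's merged exons in GENCODE M21. This takes the deposited values as not already divided by gene length, which was not tested. Over the 8 libraries the mean log2 value per kilobase was 14.97 ± 0.41 for Atp4b and 14.89 ± 0.35 for Atp4a (SD), and this gap of 0.08 ± 0.13 (SD) was within the spread, with Atp4b higher in 6 of 8 libraries. Clic6 followed at 11.38, lower than Atp4a by a mean of 3.52 and below it in all 8 libraries. Slc4a2 and Slc9a4, at 10.66 and 10.58, were not separated beyond their spread (Slc4a2 higher in 5 of 8). Kcnj15 came next at 9.96, below Slc9a4 in all 8 libraries. Kcnq1 at 9.02, Kcne2 at 8.89 and Slc26a9 at 8.73 were neighbours within their spread, the order holding in 5 and 6 of 8 libraries. Slc26a7 was last at 5.13, below Slc26a9 by a mean of 3.60 and in all 8 libraries. Merged exons overstate the length of transcripts that skip some of them.

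Ratios taken within a library do not depend on how libraries are scaled, so each of the other 9 genes was set against Atp4a, and Atp4a against Pgc (pepsinogen C of chief cells), Muc5ac (the mucin of surface mucous cells) and Muc6 (the mucin of neck cells). None of the 12 ratios passed after adjustment over the 12 (exact two-sided permutation test over 70 divisions, for which the smallest p is 0.0286; smallest adjusted p = 0.17). Against Atp4a, Slc26a9 stood at -5.92 ± 0.15 in HFD and -5.47 ± 0.57 in ND (SD, n = 4 each), a difference of -0.46 ± 0.30 (SE; exact permutation p = 0.23). Within ND this ratio was -4.79 in ND15.17.18 and -6.13 in ND20, outside the HFD range of -6.08 to -5.72 on either side. Slc26a7 to Atp4a differed by -0.41 ± 0.32 (SE; exact permutation p = 0.29) and Kcnj15 to Atp4a by -0.17 ± 0.39 (SE; exact permutation p = 0.71), and without ND15.17.18 these became -0.20 and 0.14, with Slc26a9 to Atp4a at -0.23. Kcnq1 to Atp4a differed by 0.33 ± 0.23 (SE; exact permutation p = 0.20), and by 0.13 without HFD23. For Slc4a2, Clic6, Kcne2 and Slc9a4 the differences were 0.04, 0.09, 0.10 and 0.20, with SE of 0.14, 0.14, 0.22 and 0.26.

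Set against Pgc and against Muc5ac, Atp4a differed with opposite signs, each ratio resting on a single partner gene. The share of all rows whose ratio to Atp4a keeps the groups apart is not given here. On level alone 7.85% of all tested rows kept them apart. Atp4a to Pgc was -4.74, -5.04, -4.05 and -4.10 in HFD22, HFD23, HFD26 and HFD27 and -3.70, -3.44, -4.01 and -3.40 in ND15.17.18, ND16, ND19 and ND20, lower in every HFD library than in any ND library. The difference was -0.84 ± 0.28 (SE), or 0.557-fold, at the smallest p that 4 against 4 libraries allow (exact permutation p = 0.0286; adjusted over the 12 ratios p = 0.17). Pgc itself was at 20.97 to 21.36 in HFD and 19.99 to 21.10 in ND. All 8 chief cell markers had positive differences, with a median of 0.78, where 39.9% of all tested rows were negative. Of these markers 0 were called by limma, and 5 were higher at an unadjusted p under 0.05 (6.52% of all tested rows). Atp4a to Muc5ac was 1.01, 0.69, 1.35 and 1.05 in HFD22, HFD23, HFD26 and HFD27 and -2.03, -0.40, 0.60 and 0.18 in ND15.17.18, ND16, ND19 and ND20, higher in every HFD library. That difference was 1.44 ± 0.59 (SE; exact permutation p = 0.0286; adjusted over the 12 ratios p = 0.17), and 0.90 without ND15.17.18. Muc5ac itself was at 15.58 to 15.97 in HFD and 16.48 to 18.31 in ND, with no overlap. Such a gap on the lower side was seen in 3.09% of all tested rows. The median difference of the 5 surface mucous markers was -0.12, close to the -0.17 of Atp4a. After quantile normalization both were 0.29, and as deposited they were 0.74 and 0.68. Without ND15.17.18 they lay further apart, at -0.028 for the markers and -0.37 for Atp4a. The ratio to Muc5ac therefore does not stand for that list. Atp4a to Muc6 differed by 0.09 ± 0.92 (SE; exact permutation p = 0.94) and changed sign without ND15.17.18, to -0.60. Muc6 spread widely, at 13.13 to 15.10 in HFD and 13.49 to 15.77 in ND. Of the 4 neck cell markers 3 had positive differences and 1 a negative one, where 39.9% of all tested rows were negative. Their median was 0.44.

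**Figure D3:**
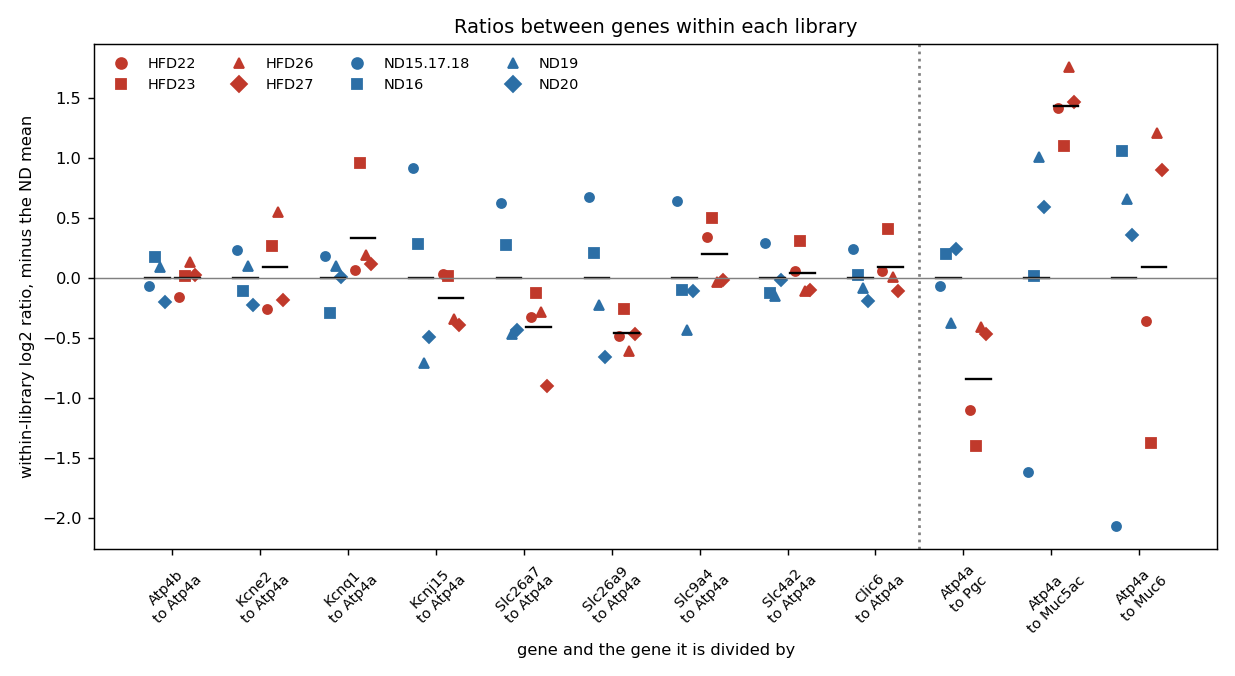
Log2 ratio of 2 genes within each library, with the ND mean of each ratio set to 0 (vertical axis, log2 units), for the 9 genes divided by Atp4a (left of the dotted line) and for Atp4a divided by Pgc, Muc5ac and Muc6 (right). Points are libraries, short bars are group means; HFD and ND libraries separate fully only for Atp4a to Pgc and Atp4a to Muc5ac.

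The libraries also show which of these RNAs hold a steady ratio to the pump. Likeness to Atp4a was measured as the SD, over the 8 libraries, of a row's log2 ratio to Atp4a, a measure with no scaling and no test, ranked over the 9134 rows with a symbol and a mean of at least 8. After scaling Atp4a itself had an SD of 0.35, which is also what a row of constant scaled level would show. Values near 0.35, as for Kcnq1 and Slc9a4 below, therefore need no variation shared with Atp4a. Atp4b ranked 3rd, with an SD of 0.13, where the median row had 0.42. Slc4a2 ranked 43rd (0.19) and Clic6 54th (0.20), both within the first 0.591% of rows. Kcne2 ranked 724th (0.29), Kcnq1 2432nd (0.35) and Slc9a4 2652nd (0.36), while Slc26a9 at 0.46 (5660th) and Kcnj15 at 0.52 (6797th) lay past the median row. Slc26a7, with a mean of 7.57, was too low to be ranked and had an SD of 0.47. The 5 other rows nearest to Atp4a were Gapdh-ps15 (0.12), a Gapdh pseudogene whose reads cannot be told from those of its parent with certainty, Arf5 (0.12), Fbxo21 (0.14), Hsdl1 (0.14) and Emc6 (0.14). Ranks this close rest on few libraries. ND15.17.18 and HFD23 were the libraries lowest in Atp4a, so without them Atp4a varied less and the ranks reflect steadiness more. Without ND15.17.18, Atp4b ranked 26th, Slc4a2 62nd and Clic6 172nd, and without HFD23 and ND15.17.18 they ranked 498th, 10th and 35th, so these 3 stayed within the first 5.45% of rows. The others moved far: in the same order Kcne2 ranked 2358th and 5636th, Kcnq1 5269th and 853rd, Kcnj15 4164th and 6861st, Slc26a9 2241st and 6032nd, and Slc9a4 2699th and 3634th.

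Among the 45 pairs of the 10 genes the tightest was Slc4a2 with Clic6, whose log2 ratio had an SD of 0.10 over the 8 libraries, followed by Atp4a with Atp4b (0.13), Atp4a with Slc4a2 (0.19) and Atp4a with Clic6 (0.20). Kcnj15 with Slc26a7 (0.25), Slc26a7 with Slc26a9 (0.25) and Kcnj15 with Slc26a9 (0.29) ranked 8th, 11th and 16th. Kcnj15, Slc26a7 and Slc26a9 are the genes that were highest in ND16 and ND15.17.18. Pairs outside these groups were about as close, among them Slc9a4 with Slc4a2 (0.20), Slc9a4 with Clic6 (0.23) and Kcnq1 with Clic6 (0.25), so closeness alone does not set the groups apart. The 3 loosest pairs all held Kcnq1, with Slc26a7 (0.60), Slc26a9 (0.61) and Kcnj15 (0.62). Kcnq1 and Kcne2, which form a channel together, had an SD of 0.33 against each other, more than Kcne2 with Atp4b (0.25). Without ND15.17.18 the loosest of these pairs, Kcnq1 with Kcnj15, still had an SD of 0.51, and Slc4a2 with Clic6 one of 0.11. Without HFD23 and ND15.17.18 the order changed. Atp4a with Slc4a2 (0.077) and Atp4a with Clic6 (0.094) were then tighter than Slc4a2 with Clic6 (0.11). Atp4a with Kcnq1 fell from 0.35 to 0.17, and the loosest pair was Kcne2 with Kcnj15 (0.53). The grouping was seen in the values and has no test.

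**Figure D4:**
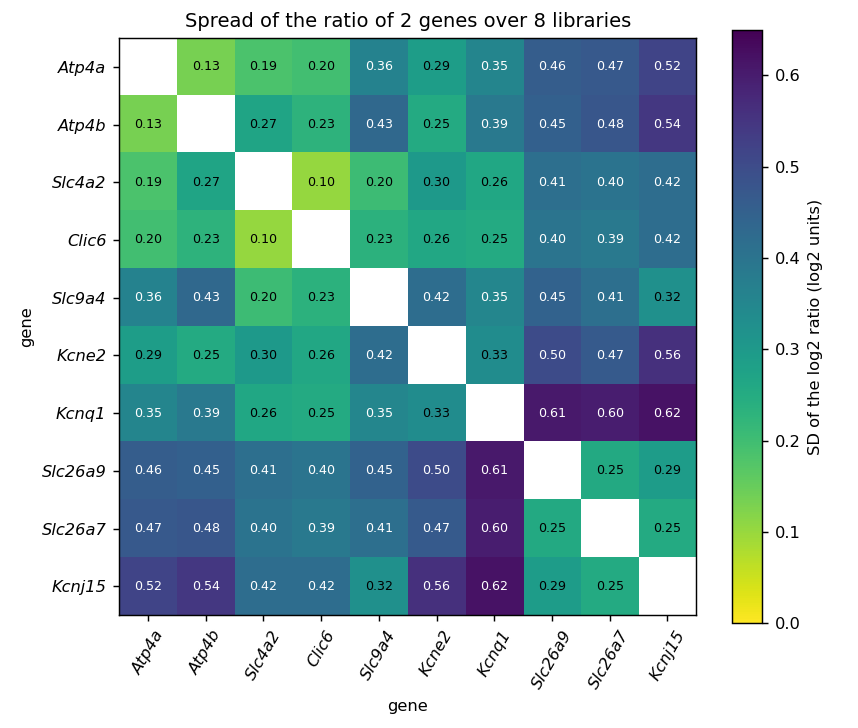
SD over the 8 libraries of the log2 ratio of each pair of the 10 genes (color and printed number, log2 units; both axes list the genes, in an order chosen after the values were seen). Low values mark genes whose ratio varies little from library to library: Atp4a, Atp4b, Slc4a2 and Clic6 lie at 0.27 or less among themselves, and Slc26a9, Slc26a7 and Kcnj15 at 0.29 or less. Some pairs outside these groups are as close, such as Slc9a4 with Slc4a2 (0.20) and with Clic6 (0.23).

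Among further genes of ion and water transport in the gland, 25 of 28 listed could be tested, and 0 were called in either direction by limma (0.0109% of all tested rows), with 2 higher and 2 lower at an unadjusted p under 0.05 (6.52% and 4.03% of all tested rows). Their median difference was 0.11, beside 0.12 over all tested rows. Of the differences 14 were positive and 11 negative, where 39.9% of all tested rows were negative. Kcne3, an epithelial potassium channel subunit and relative of Kcne2, was at 7.77, 8.69, 6.42 and 8.09 in HFD22, HFD23, HFD26 and HFD27 and at 4.74, 6.74, 6.40 and 6.32 in ND15.17.18, ND16, ND19 and ND20. HFD26 lay among the ND libraries, and the difference was 1.69 ± 0.55 (SE; limma adjusted p = 0.34), with 2.50 as deposited. The sodium bicarbonate cotransporter Slc4a4 was at -0.44 ± 0.16 (SE; limma adjusted p = 0.37), and at 0.42 as deposited. Carbonic anhydrase Car2, which supplies the protons and bicarbonate, was at 0.33 ± 0.16 and the water channel Aqp4 at 0.27 ± 0.22 (SE; limma adjusted p = 0.50 and 0.67), the opposite side of 0 from the pump after scaling.

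A list of 20 genes was taken for traffic of the pump between tubulovesicles and the canalicular membrane. The libraries do not resolve which cells express them. Of these genes 0 were called by limma (0.0109% of all tested rows), with 0 higher and 3 lower at an unadjusted p under 0.05 (6.52% and 4.03%). Of the 20 differences 15 were negative, with a median of -0.12, where 39.9% of all tested rows were negative. The 3 with the smallest p were Lasp1, an actin-binding phosphoprotein of the canaliculus, at -0.32 ± 0.12, Ezr, the ezrin that ties the apical membrane to actin, at -0.31 ± 0.12, and Rab11fip1, a partner of Rab11, at -0.35 ± 0.13 (SE; limma adjusted p = 0.40, 0.40 and 0.41). Ezr was at 14.12 to 14.55 in HFD and at 14.58 to 14.80 in ND, with no overlap, as in 3.09% of all tested rows on the lower side. All of these had positive deposited differences, of 0.54, 0.55 and 0.50.

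In a list of 12 regulators, receptors and secreted factors of parietal cells 10 differences were negative (39.9% of all tested rows), with a median of -0.26. Which cells express these genes is not resolved by the libraries. By limma 0 were called, with 0 higher and 2 lower at an unadjusted p under 0.05 (6.52% and 4.03% of all tested rows). Esrrg, an estrogen-related receptor known to drive ion transport genes of the parietal cell, was at -0.38 ± 0.17, and the gastric transcription factor gene Gata4 at -0.23 ± 0.10 (SE; limma adjusted p = 0.47 each). Vegfb, a growth factor gene, was at -0.47 ± 0.23 (SE; limma adjusted p = 0.50). Esrrg was at 11.00 to 11.50 in HFD and 11.36 to 12.03 in ND, with overlap, and Gata4 at 12.76 to 12.88 in HFD and 12.94 to 13.30 in ND, with none, as in 3.09% of all tested rows on the lower side. The median of this list stayed at -0.27 without ND15.17.18 and was 0.59 as deposited, below the 0.90 of the median row. Hrh2, the histamine receptor gene of acid secretion, had the most negative difference of the list, at -1.37 ± 0.85 (SE), with a single high value of 14.89 in ND15.17.18 against 10.08 to 11.94 in the other 7 libraries.

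**Figure D5:**
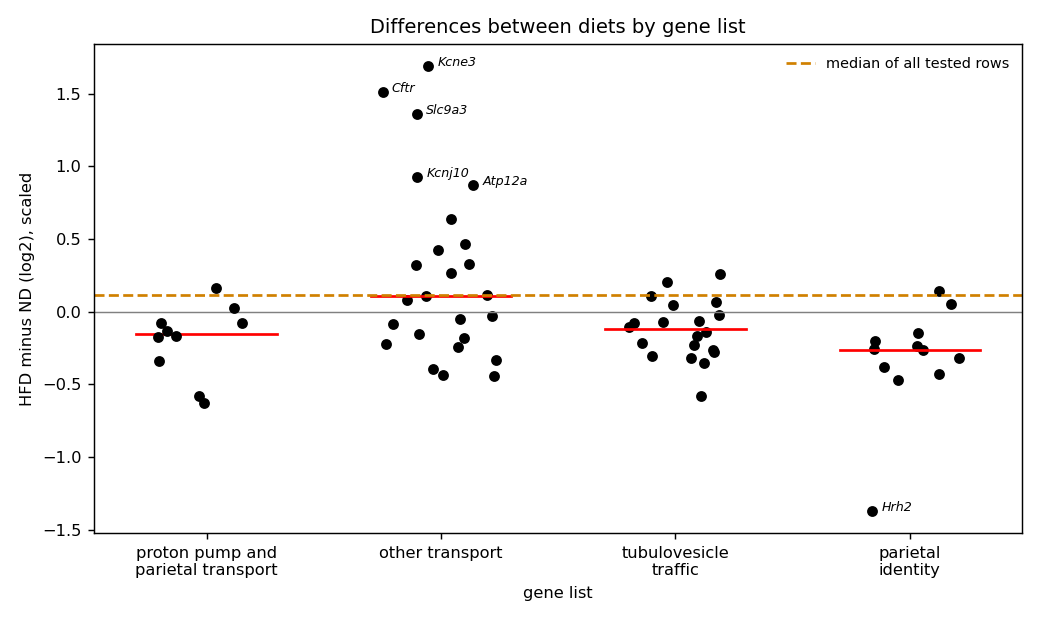
Difference between diets (vertical axis, HFD minus ND, log2, after median-ratio scaling) of each tested gene in 4 lists: the 10 genes of the pump and its transport partners, 25 other transport genes, 20 tubulovesicle genes and 12 parietal identity genes. Red bars are list medians (-0.15, 0.11, -0.12 and -0.26), the dashed line is the median of all tested rows (0.12), and no gene shown was called.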

How the data were processed

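RNA of sorted cells was treated with DNase and freed of ribosomal RNA, per the labels' protocols. The submitters' processing notes name mm10 and bedtools 2.17.0 without a role; the normalization is not given in the sources used here. The authors deposited log2 values, 1 table per library, floored at 0, whose antilogs sum to 36.9 M in each. Depth is that total over the step between frequent low values; 24.6% to 34.9% of low values were whole steps (within 0.01), too few for a count test. In R 4.3.3, limma 3.58.1 with its trend and robust settings was run on log2(value + 1), which understates the change of low genes, for the 27401 rows reaching 1 in 4 libraries, all 10 genes included; the scaling used the 11115 rows above 30 throughout. Code was tested on simulated data. Ratios were tested with scipy 1.17.1. Genes, lists and scaling were chosen with earlier results of these data known. Named genes are the 10, the 3 with the smallest p of each further list when none was called, and the 5 nearest to Atp4a; Car2, Aqp4 and Hrh2 were added after their values were seen. A gene that these rules would name is not reported here. Alternatives were the deposited scale, quantile normalization, a pseudocount of 16, a filter at 30 or none, limma without trend and robust, array weights, and leaving out libraries.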

Additional observations from a re-analysis of the deposited data

Results flagged for a closer look

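In 44 groups of 4 libraries, a level or a within-library ratio was checked for a library far from the other 3 (Dixon's ratio of gap to range), and 2 groups held one. Chance alone gives about 1 in 20. Atp4a in ND15.17.18 stood at 16.28, with the other ND libraries at 17.07 to 17.13. The log2 ratio of Kcnq1 to Atp4a in HFD23 stood at -4.96, with the other HFD libraries at -5.85 to -5.72.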

How the results depend on the processing

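No paired analysis was possible because the groups share no replicate number. The count of 0 of the 10 genes called held under all 16 alternative fits, and the smallest adjusted p of any of them was 0.20; the counts of 0 for the 3 other lists held as well. The count of 0 of 12 ratios was tested again only on deposited values and with a pseudocount of 16, and held; with libraries left out ratios are values with no test. Among 160 recomputed differences 17 changed sign. On the deposited scale Atp4a, Atp4b, Kcne2, Kcnj15, Slc26a7, Slc26a9, Slc4a2 and Clic6 became 0.68, 0.69, 0.78, 0.51, 0.27, 0.23, 0.72 and 0.78, since each library's scaling moves all rows alike. After quantile normalization Atp4a, Atp4b and Clic6 became 0.29, 0.076 and 0.029. With 1 library left out Kcne2 ran from -0.30 to 0.074, Slc9a4 from -0.054 to 0.073 and Clic6 from -0.20 to 0.0078. Kcnq1 ran from 0.020 to 0.28 with 1 library left out and became -0.054 without HFD23 and ND15.17.18, a case added after the data were seen. The count of 3 rows called among all rows became 16 as deposited, 1 without trend and robust, 21 with array weights, and 0 to 4 with libraries left out, 4 without ND16 and 0 without ND19, without ND20 or without HFD23 and ND15.17.18. Depth limits Slc26a7 most, in ND19 and ND15.17.18.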
